A study of Mus musculus with 4 samples.

Results

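Rab GTPases were described by symbol: all genes of the deposited mouse RNA-seq table named Rab followed by a number and at most 1 letter from a to d. The rule found 58 genes with 76 transcripts among 24063 genes with 33072 transcripts. The libraries came from the pair of pituitary cell types that express Pomc, the gene of the ACTH and melanocyte-stimulating hormone precursor. Corticotropes were sorted from one dissected pituitary lobe and melanotropes from the other, by the GFP of a POMC-EGFP transgene that all mice (strain C57B6) carried, and each cell type had 2 libraries. The sort thus selected cells by activity of the POMC-EGFP transgene, and the labels give no age, sex or number of animals. Nor do they tie the replicates to separate animals or sorts, so the p-values measure the spread between these libraries, which may be technical.

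Rab proteins are small GTPases that mark membrane compartments. In the GTP-bound form a Rab recruits effectors such as motors, tethers and docking factors, exchange factors load the GTP, and GTPase-activating proteins end the active state. Rab proteins hold to membranes through geranylgeranyl lipids. In pituitary endocrine cells, which store peptide hormones in dense core granules, Rab3 and Rab27 proteins are known for docking and release of granules, while other Rabs serve the endoplasmic reticulum (ER), the Golgi, endosomes and lysosomes.

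Levels are in FPKM, fragments counted per transcript length and library total, so they can be compared between genes. The deposited columns have nearly equal sums, and Pomc took 27.8 and 27.2% of the sum in corticotropes and 49.7 and 50.9% in melanotropes. Values were therefore rescaled by trimmed-mean factors, and unless stated otherwise every FPKM below is on the rescaled scale. Steps between low values implied 97857314 and 187254705 reads in corticotropes and 146058978 and 149669442 in melanotropes. These are sums over the longest transcript of each gene, not library totals. The median log2 fold change of all genes, melanotrope over corticotrope, was 0.01 after rescaling and -0.42 on the deposited scale. Marker genes show what each sort held. Summed markers of melanotropes were at 231 and 179 FPKM in corticotropes and 1579 and 1436 in melanotropes, and those of corticotropes at 344 and 335 against 106 and 95.1. Pcsk1 held most of that melanotrope level, at 149 and 129 FPKM in corticotropes and 95.3 and 85.3 in melanotropes. The other corticotrope markers were Crhr1 (126 and 138 against 8.13 and 7.03), Nr3c1 (51.8 and 50.8 against 2.37 and 2.48) and Avpr1b (17.2 and 17.7 against 0.306 and 0.297). Summed markers of other anterior lobe lineages were at 5810 and 5660 FPKM in corticotropes against 14.5 and 63.6 in melanotropes, with Gh alone at 4080 and 3875 against 4.16 and 40.8, and 12 of 12 tested were lower. The sorts also differed in the list of 8 posterior lobe and glial markers, of which all 4 tested were higher in melanotropes. The list summed to 16.2 and 20.0 FPKM in corticotropes against 39.4 and 45.8. Sox2 held the largest part of the level (12.9 and 15.8 against 22.8 and 25.8), and Slc1a3 was at 1.55 and 2.09 against 11.1 and 14.1. Rax was at 0.00819 and 0.0261 against 2.69 and 2.97, and Sox9 at 0.540 and 0.574 against 1.24 and 1.24. The other 4 were under 1 FPKM in every library. Of these, Gfap and Slc1a2 were above in melanotropes, Aqp4 was below (0.753 and 0.999 against 0.556 and 0.681), and the libraries overlapped for S100b. The part of other cell types in the Rab values was not tested. In sorted populations, fewer cells of a type and less RNA per cell cannot be told apart.

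The promoters of the 4 Rab3 genes and of Rab20 are shown because the Rab3 paralogs moved in both directions and Rab20 had the largest rise among Rab genes. Each is the 250 bases before the gene's RefSeq start on GRCm38.p6, read 5′ to 3′ on the gene's strand. Capitals mark matches on either strand to the letters GGGCGG, known as the GC box and bound by Sp1. They also mark the CCAAT box, which is named by its letters. The letters TATAAA of the TATA box, which positions transcription starts in some promoters, are in capitals too. The last motif marked is the E box with the letters CANNTG, bound by basic helix-loop-helix factors.
Rab3a: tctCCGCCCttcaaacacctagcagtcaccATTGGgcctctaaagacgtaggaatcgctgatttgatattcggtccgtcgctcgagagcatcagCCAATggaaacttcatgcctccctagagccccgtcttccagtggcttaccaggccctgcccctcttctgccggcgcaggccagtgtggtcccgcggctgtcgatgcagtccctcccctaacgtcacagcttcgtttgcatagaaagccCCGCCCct
Rab3b: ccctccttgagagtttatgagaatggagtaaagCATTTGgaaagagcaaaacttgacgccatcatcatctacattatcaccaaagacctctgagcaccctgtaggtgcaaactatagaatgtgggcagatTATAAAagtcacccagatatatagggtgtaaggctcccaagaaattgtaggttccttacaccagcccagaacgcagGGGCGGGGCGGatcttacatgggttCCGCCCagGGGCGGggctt
Rab3c: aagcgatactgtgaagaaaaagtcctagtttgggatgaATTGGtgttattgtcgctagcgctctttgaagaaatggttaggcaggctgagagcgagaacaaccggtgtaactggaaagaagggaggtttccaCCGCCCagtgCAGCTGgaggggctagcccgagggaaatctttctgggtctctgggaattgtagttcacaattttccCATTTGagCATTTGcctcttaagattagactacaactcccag
Rab3d: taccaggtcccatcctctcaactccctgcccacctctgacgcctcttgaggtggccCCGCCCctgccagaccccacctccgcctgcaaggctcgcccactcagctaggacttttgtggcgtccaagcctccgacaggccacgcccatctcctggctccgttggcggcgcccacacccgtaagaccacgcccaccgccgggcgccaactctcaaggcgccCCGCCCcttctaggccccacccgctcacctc
Rab20: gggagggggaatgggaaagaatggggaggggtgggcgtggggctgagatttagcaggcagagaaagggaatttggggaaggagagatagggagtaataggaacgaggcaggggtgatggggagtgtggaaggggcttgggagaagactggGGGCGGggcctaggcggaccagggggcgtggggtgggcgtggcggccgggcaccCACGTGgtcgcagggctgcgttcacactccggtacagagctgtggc
The windows are chr8:70754453-70754702 on the plus strand for Rab3a, chr4:108878820-108879069 on the plus strand for Rab3b, chr13:110280207-110280456 on the minus strand for Rab3c, chr9:21918184-21918433 on the minus strand for Rab3d and chr8:11478641-11478890 on the minus strand for Rab20. The RefSeq start lay 24 bases from the start in the deposited table for Rab3a, 62 for Rab3d and 141 for Rab20, and at the same base for Rab3b and Rab3c. The Rab3b window holds TATAAA from 120 to 115 bases before the start 4 GC box matches, 2 of them overlapping by 1 base, within the last 44 bases, and 1 E box. The Rab3a window holds 2 CCAAT and 2 GC box matches, Rab3c holds 1 CCAAT match, 1 GC box match and 3 E boxes, and Rab3d holds 2 GC box matches alone. The Rab20 window holds 1 GC box match and 1 E box. A GC box match was found in 72.9% of the 48 Rab promoters matched to RefSeq and in 32.7% of all 32817 windows, a CCAAT match in 47.9 and 33.8%, a TATA match in 8.33 and 12.4%, and an E box in 62.5 and 66.2%. The Rab set holds 1 window per gene, while the full set holds every distinct window, not matched for expression or kind of gene, so the 2 sets are unlike. These matches describe letters in a window and were not tested for binding.

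The 3 Rab genes with the highest level were the same in both cell types. Summed over the 58 genes, Rab transcripts stood at 1041 and 1045 FPKM in corticotropes and at 1069 and 1095 in melanotropes. Rab2a, which serves transport between ER and Golgi, was the highest in both (means of 106.5 and 111.0 FPKM in corticotropes and melanotropes), followed by the granule gene Rab27a (91.3 and 84.9) and the ER exit gene Rab1b (66.3 and 66.0). None of these 3 passed the test between cell types. The fourth rank differed, being Rab5c in corticotropes (46.3 FPKM) and Rab5b in melanotropes (45.0 FPKM). Below 1 FPKM on average were 10 Rab genes in corticotropes and 7 in melanotropes.

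Of the 58 genes, 52 reached 1 FPKM in at least 2 libraries and were tested. With limma and Benjamini-Hochberg adjustment over 13043 genes at a threshold of 0.05, 16 Rab genes were higher in melanotropes and 7 were lower. That is 30.8 and 13.5% of the Rab genes tested, beside 18.7 and 17.5% of all genes tested, and in either direction 44.2% of Rab genes beside 36.3% of all genes. A call with at least a 2-fold change on the log2(FPKM + 1) scale was made for 4 Rab genes upward and 2 downward (7.69 and 3.85%), beside 4.17 and 4.69% of all genes and 8.86% in either direction. Of these 6, Rab17, Rab20 and Rab38 were at 1 FPKM in 1 cell type alone, and 2 upward and 1 downward calls of this size were among the 46 Rab genes at 1 FPKM in all 4 libraries. For 23 of the 52 genes each melanotrope library exceeded each corticotrope library, and for 13 each was below, beside 35.9 and 34.4% of all genes. The median log2 fold change of the Rab genes was 0.06. The 29 genes that did not pass ranged from -0.25 for Rab31 to 0.26 for Rab6b. The 6 untested genes were Rab32, Rab33a, Rab37, Rab39, Rab42 and Rab44, and Rab39 was the highest of them at 0.925 and 0.930 FPKM in corticotropes and 0.624 and 0.520 in melanotropes. Of the genes tested, 5 had passed the filter through 1 cell type: Rab13, Rab17, Rab20 and Rab29 through melanotropes and Rab38 through corticotropes. Among the 46 Rab genes at 1 FPKM in all 4 libraries, 20 were called (43.5%, beside 32.5% of all such genes).

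The split between directions moved with the scaling. On the deposited scale 5 Rab genes were higher and 32 lower of 53 tested, beside 7.14 and 66.8% of all genes, and the Rab median was -0.41, close to the median of all genes on that scale. Of the 16 higher calls, Rab20, Rab40b, Rab27b, Rab17 and Rab8b held there. All 7 lower calls held on both scales. The filter on low values also moved the count: without it 10 Rab genes were higher and 5 lower, and Rab3a, Rab3b, Rab3c, Rab3d, Rab18, Rab19, Rab22a, Rab27b and Rab39b lost their calls (adjusted p from 0.0783 to 0.166). The 10 include Rab44, which the filter leaves untested (limma adjusted p = 0.0258 without it). Its level was 0.0491 and 0.0435 FPKM in corticotropes and 0.170 and 0.149 in melanotropes.

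The authors' deposited table gives an adjusted p under 0.05 for 2 of the 76 Rab transcripts, beside 2.28% of all 33072 transcripts. Both belong to Rab27b, with log2 fold changes of 1.20 and 1.14 and adjusted p of 0.0298 and 0.0462 in the authors' deposited table. Rab26 stood at -1.89 there with an adjusted p of 0.0609 in the authors' deposited table, and 71 Rab transcripts had an adjusted p of 1. Rab20, Rab17, Rab40b, Rab8b, Rab15 and Rab38, all called in the rescaled fit, thus did not pass in the authors' deposited table. The authors' log2 fold changes, none of them passing, were positive for Rab3a (0.317 and 0.338 for its transcripts), Rab3d (0.396), Rab22a (0.513), Rab25 (0.406) and Rab39b (0.281). For these genes the rescaled fit was positive too, while the unscaled FPKM gave negative values.

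**Figure D1:**
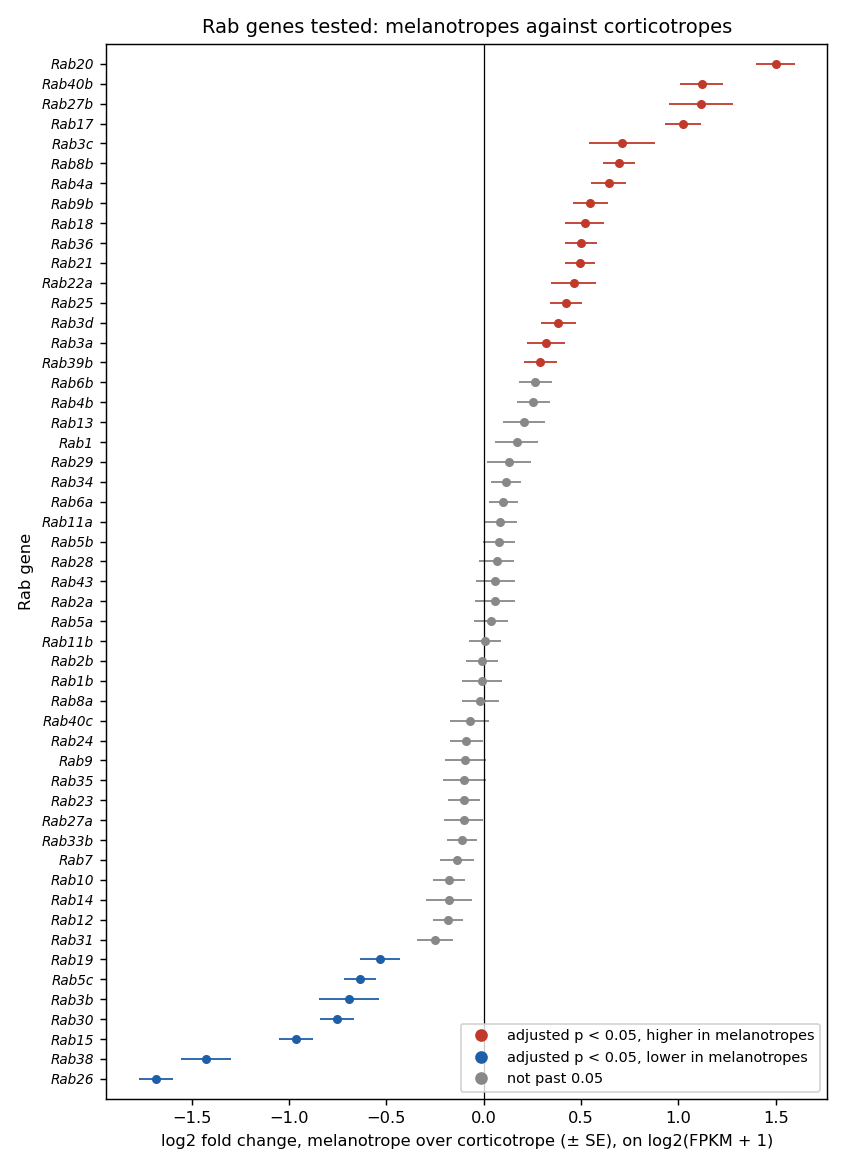
Log2 fold change, melanotrope over corticotrope, on log2(FPKM + 1) with its standard error (bars) for the 52 Rab genes tested, ordered by size. Red points (16 genes) passed adjusted p 0.05 upward, blue points (7 genes) downward, and grey points did not pass, with Rab20 at 1.5 and Rab26 at -1.68 as the ends.

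Among the Rabs of secretory granules, the Rab3 paralogs went opposite ways. Rab3b fell in melanotropes while Rab3c, Rab3d and Rab3a rose, and of the 7 granule Rabs tested 4 were higher and 2 lower, with Rab27a not called, beside 18.7 and 17.5% of all genes. Without a filter on low values 0 granule Rabs were higher and 1, Rab26, was lower. Rab3b (chromosome 4, 108879070 to 108943324 on mm10) was at 28.0 and 30.1 FPKM in corticotrope replicates 1 and 2 and at 14.8 and 20.8 in melanotrope replicates 1 and 2. Both melanotrope libraries lay below both corticotrope libraries (log2 fold change -0.69 ± 0.15 SE, adjusted p = 0.0169). Without a filter on low values the adjusted p of Rab3b was 0.150, the highest of its 15 alternatives, which began at 3.90e-04. Exons of the opposite-strand gene 8030443G20Rik cover 9.53% of the Rab3b exons in GENCODE, and no strand setting of the counting was found in the labels or headers.

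Rab3c was at 7.54 and 5.0 FPKM in corticotropes and at 11.1 and 10.4 in melanotropes (log2 fold change 0.71 ± 0.17, adjusted p = 0.0206). Rab3d was at 9.36 and 9.58 against 11.9 and 13.5 FPKM (0.38 ± 0.09, adjusted p = 0.0201). Rab3a was at 30.2 and 26.0 against 34.3 and 36.2 FPKM (0.32 ± 0.10, adjusted p = 0.0475). The libraries of the cell types did not overlap for any of the 3. The rises of Rab3a and Rab3d turned to -0.16 and -0.07 on the deposited scale, where the rise of Rab3c was 0.27, and none of the 3 passed there (adjusted p = 0.236, 0.466 and 0.255, each the highest of its 15 alternatives). All 3 also lost their calls without a filter on low values (adjusted p = 0.156 for Rab3a, 0.0843 for Rab3d and 0.166 for Rab3c). Rab3a also lost its call when corticotrope replicate 2, melanotrope replicate 1 or melanotrope replicate 2 was left out (adjusted p = 0.235, 0.0808 and 0.152), and with a single prior variance (0.0561). Rab3d lost it without corticotrope replicate 1 or melanotrope replicate 2 (0.0638 and 0.109).

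Shares within a library do not depend on scaling, and they set the Rab3 genes side by side. The summed Rab3 level was 75.1 and 70.6 FPKM in corticotropes and 72.0 and 80.8 in melanotropes, so the sums overlapped. Rab3b made up 37.3 and 42.6% of it in corticotropes and 20.6 and 25.7% in melanotropes. Rab3a made up 40.2 and 36.8% against 47.6 and 44.8%, Rab3c 10.05 and 7.07% against 15.4 and 12.8%, and Rab3d 12.5 and 13.6% against 16.5 and 16.7%. For each paralog the libraries of the 2 cell types did not overlap, and an exact two-sided permutation test gave p = 0.333, the smallest that 2 against 2 libraries allow. The shares of a library add up to the whole, so a lower Rab3b share raises the others by construction. The shares of Rab3a, Rab3c and Rab3d are thus not separate results, and they do not show whether these genes rose. The ratio of Rab3b to Rab3a was 0.927 and 1.16 in corticotropes and 0.432 and 0.575 in melanotropes.

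**Figure D2:**
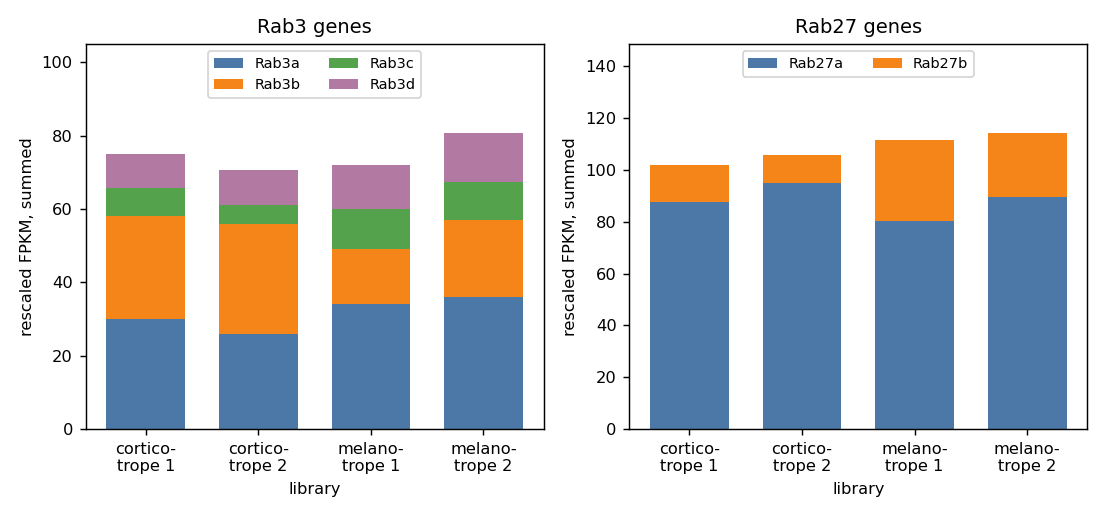
Rescaled FPKM of the 4 Rab3 genes (left) and the 2 Rab27 genes (right), stacked for each library. The Rab3 bars reach 70.6 to 80.8 in all libraries while the Rab3b segment is 28.0 and 30.1 in corticotropes and 14.8 and 20.8 in melanotropes, and the Rab27b segment is larger in both melanotrope libraries.

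Of the pair of Rab27 genes, Rab27b rose and Rab27a was not called. Rab27a (chromosome 9, 73044810 to 73097614) was at 87.6 and 94.98 FPKM in corticotropes and at 80.3 and 89.5 in melanotropes, with overlapping libraries (log2 fold change -0.10 ± 0.10, adjusted p = 0.457). On the deposited scale it passed as lower (-0.59, adjusted p = 0.00113, the lowest of its 15 alternatives, which reach 0.908). Rab27b (chromosome 18, 69979131 to 70053369), which acts beside Rab27a in granule docking, was at 14.2 and 10.5 FPKM in corticotropes and at 31.0 and 24.7 in melanotropes. It was higher in both melanotrope libraries (1.11 ± 0.16, adjusted p = 0.00353), also on the deposited scale (0.65, adjusted p = 0.0292), but not without a filter on low values (0.0830, the highest of its 15 alternatives). Its share of the summed Rab27 level was 13.9 and 9.98% in corticotropes and 27.8 and 21.6% in melanotropes (exact permutation p = 0.333).

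Rab26 had the largest fall among Rab genes on the log2(FPKM + 1) scale, while in the ratio of mean FPKM Rab38 fell further. It is a Rab of secretory granules and vesicles, on chromosome 17 from 24529054 to 24533747. Its level was 11.1 and 11.7 FPKM in corticotropes and 2.73 and 3.01 in melanotropes, a mean 3.98-fold lower (log2 fold change -1.68 ± 0.09, adjusted p = 8.93e-05). It passed in the same direction under all 15 alternatives, with adjusted p from 1.08e-06 to 0.0152. Rab37, another granule Rab, was at 0.0737 and 0.0782 against 0.0227 and 0.0372 FPKM, from 11 to 53 implied reads, and was not tested. The 8 granule Rabs together summed to 188.0 and 188.0 FPKM in corticotropes and 186 and 198 in melanotropes.

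Among Rabs of the lysosome-related organelles, Rab38 was near the detection limit in melanotropes. Rab38, which in pigment cells carries melanosome enzymes, lies on chromosome 7 from 88430273 to 88491572. Its level was 2.08 and 1.49 FPKM in corticotropes (461 and 619 implied reads) and at 0.0340 and 0.0248 in melanotropes (10 and 7 implied reads). The log2 fold change was -1.43 ± 0.13 (adjusted p = 5.80e-04), and it depended on the pseudocount, being -3.85 with 0.1 FPKM and -0.43 with 5 FPKM. It was tested through its corticotrope level alone and was left untested where the mean over libraries had to reach 1 FPKM. Rab29 did not pass, at 0.982 and 0.999 against 1.01 and 1.36 FPKM, and the close paralog of Rab38, Rab32, was at 0.261 to 0.400 FPKM and was not tested.

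Of 12 ER and Golgi Rabs tested, 2 rose, 1 fell and 9 did not pass, beside 18.7 and 17.5% of all genes higher and lower. Their sum was 310 and 303 FPKM against 328 and 315. Rab30, a Golgi Rab on chromosome 7, fell from 11.6 and 10.7 FPKM to 5.97 and 6.48 (-0.76 ± 0.09, adjusted p = 0.00144). Rab18, known for lipid droplets and ER, was at 4.75 and 4.5 against 7.65 and 6.52 FPKM (0.52 ± 0.10, adjusted p = 0.00986), and without melanotrope replicate 1 its adjusted p was 0.0533, and without a filter on low values 0.0783 (range over alternatives 7.56e-04 to 0.496). Rab36 was at 8.43 and 7.94 against 11.7 and 12.3 FPKM (0.50 ± 0.08, adjusted p = 0.00511). Neither rise passed on the deposited scale, at 0.10 for Rab18 and 0.05 for Rab36.

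Between Golgi and cell surface, Rab8b was called and its paralog Rab8a was not. Rab8b was at 3.20 and 3.19 FPKM in corticotropes and 5.86 and 5.70 in melanotropes (0.69 ± 0.08, adjusted p = 0.00156), and Rab8a at 31.8 and 35.0 against 31.1 and 34.9 (adjusted p = 0.898). The ratio of Rab8b to Rab8a was 0.101 and 0.0912 in corticotropes and 0.189 and 0.163 in melanotropes. Rab10 and Rab13 were not called.

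Of 6 early endosome Rabs tested, Rab5c fell and Rab21 and Rab22a rose, beside 18.7% of all genes higher and 17.5% lower. Rab5c, a paralog of the early endosome regulators Rab5a and Rab5b, was at 45.1 and 47.5 FPKM in corticotropes and 28.5 and 30.3 in melanotropes (-0.64 ± 0.08, adjusted p = 0.00205). Rab5a and Rab5b were not called, and the ratio of Rab5c to Rab5b was 1.08 and 1.10 in corticotropes against 0.653 and 0.655 in melanotropes. Rab21, known for integrin traffic, was at 25.3 and 24.8 against 35.0 and 36.5 FPKM (0.49 ± 0.08, adjusted p = 0.00424), with 0.02 on the deposited scale, where it did not pass. Rab22a was at 17.8 and 20.0 against 23.98 and 29.0 FPKM (0.46 ± 0.11, adjusted p = 0.0245). Its value was -0.01 on the deposited scale, and its call was lost without corticotrope replicate 1, without melanotrope replicate 2 or without a filter on low values (adjusted p = 0.0853, 0.0861 and 0.145, range over alternatives 5.22e-04 to 0.941).

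Recycling endosome Rabs had a summed level of 139 and 137 FPKM in corticotropes and 153 and 159 in melanotropes, and of 9 tested 3 rose and 1 fell, beside 18.7 and 17.5% of all genes. Rab15 (chromosome 12), a Rab of early and recycling endosomes, fell from 4.19 and 4.34 FPKM to 1.70 and 1.70 (-0.96 ± 0.09, adjusted p = 5.40e-04). Rab4a, which serves fast return of receptors to the surface, was at 15.3 and 14.0 against 22.2 and 24.6 FPKM (0.64 ± 0.09, adjusted p = 0.00307) and did not pass on the deposited scale (0.17). Rab4b was at 15.1 and 13.9 against 16.7 and 18.3 FPKM and did not pass (adjusted p = 0.0665). The ratio of Rab4a to Rab4b was 1.01 and 1.01 in corticotropes and 1.32 and 1.35 in melanotropes. Exons of the same-strand gene Gm21983 cover 85.2% of the Rab4b exons in GENCODE, so the Rab4b level and this ratio may hold reads of that gene.

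Rab17, an epithelial recycling Rab on chromosome 1, was at 0.770 and 0.791 FPKM in corticotropes and 2.53 and 2.70 in melanotropes (1.02 ± 0.09, adjusted p = 5.60e-04). Rab25, an epithelial member of the Rab11 subfamily named here after its values were seen, was at 24.7 and 26.2 against 35.5 and 33.4 FPKM (0.42 ± 0.08, adjusted p = 0.00972). On the deposited scale Rab25 stood at -0.05, and without corticotrope replicate 1 its adjusted p was 0.0533 (range over alternatives 0.00106 to 0.614). Rab11a and Rab11b were not called.

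Of the late endosome Rabs, Rab9b rose and Rab7 and Rab9 were not called. Rab9b was at 3.86 and 3.85 FPKM in corticotropes and 6.41 and 5.79 in melanotropes (0.55 ± 0.09, adjusted p = 0.00511), with 0.14 on the deposited scale, where it did not pass. The ratio of Rab9b to Rab9, whose product returns receptors from late endosomes to the Golgi, was 0.342 and 0.283 against 0.564 and 0.493.

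The remaining Rabs held the largest rise, on the log2(FPKM + 1) scale and in the ratio of means, among the Rab genes tested. Rab20, known for phagosome maturation, lies on chromosome 8 from 11453977 to 11478499. It was at 0.712 and 0.869 FPKM in corticotropes and 3.91 and 4.2 in melanotropes, a mean 5.13-fold higher (log2 fold change 1.5 ± 0.10, adjusted p = 1.91e-04, at most 0.0185 over 15 alternatives). The macrophage genes C1qa and Csf1r were the 2 of 6 tested vascular, blood and immune markers that rose (3 fell). The summed level of that list was at 17.1 and 24.3 against 13.6 and 14.9 FPKM. Ptprc, also on that list, was not tested, at 0.139 and 0.191 against 0.159 and 0.186 FPKM with overlapping libraries. The part of the cells that these genes mark in the Rab20 value was not tested. Exons of the opposite-strand gene E230013L22Rik cover 25.6% of the 1392 exon bases of Rab20 in GENCODE. The transcript counted in the deposited table is 719 bases long, and its own overlap was not computed. Whether reads of that gene were counted for Rab20 is thus not known.

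Rab40b, a Rab with a SOCS box that binds a ubiquitin ligase, rose from 2.04 and 2.39 FPKM to 5.48 and 6.49 (1.12 ± 0.11, adjusted p = 8.13e-04), and its paralog Rab40c was at 9.36 and 7.87 against 8.13 and 8.09 (adjusted p = 0.609). Rab40b to Rab40c thus stood at 0.218 and 0.304 in corticotropes and 0.674 and 0.802 in melanotropes. Rab19 (chromosome 6) fell from 5.85 and 5.73 FPKM to 3.35 and 4.05 (-0.53 ± 0.10, adjusted p = 0.00976), and without a filter on low values its adjusted p was 0.0818, the highest of its alternatives. Rab39b, named after its values were seen, was at 5.52 and 6.10 against 7.32 and 7.32 FPKM (0.29 ± 0.09, adjusted p = 0.0433). It stood at -0.14 on the deposited scale and lost its call without any 1 of the 4 libraries (adjusted p from 0.0544 to 0.187) and without a filter on low values (0.0938). The opposite-strand gene Gm15063 covers 18.6% of its exons.

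**Figure D3:**
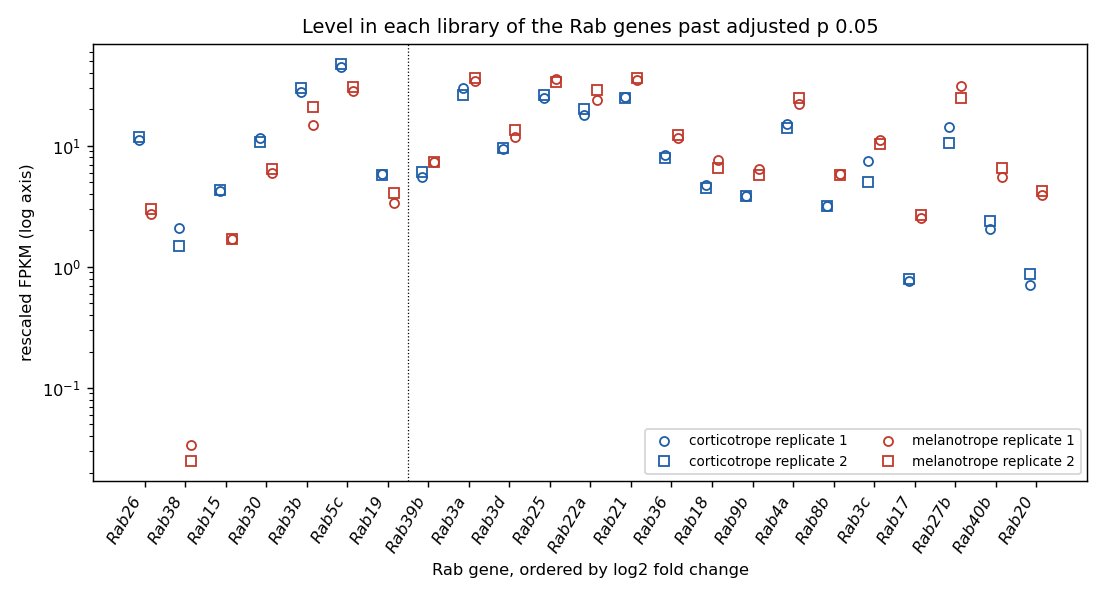
Rescaled FPKM (log axis) of the 23 Rab genes past adjusted p 0.05 in each library, corticotropes in blue and melanotropes in red, with circles for replicate 1 and squares for replicate 2. Genes left of the dotted line were lower in melanotropes, and Rab38 stands far below the others there at 0.0340 and 0.0248.

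Genes that load, end or read the Rab GTP state were taken from 5 lists. Of 32 exchange factors tested 5 rose and 4 fell, of 34 GTPase-activating proteins 5 rose and 4 fell, of 8 genes for prenylation and membrane cycling 3 rose and 1 fell, of 16 effectors and docking or release factors of granules 5 rose and 2 fell, and of 39 effectors of other Rabs 5 rose and 10 fell, beside 18.7 and 17.5% of all genes. Among exchange factors, Dennd2a was at 5.60 and 7.02 FPKM in corticotropes and 19.1 and 23.0 in melanotropes (1.59 ± 0.13, adjusted p = 4.19e-04). Rin2, which acts on Rab5, was at 1.43 and 1.65 against 3.99 and 4.86 FPKM (1.09 ± 0.11). Ankrd27, an exchange factor of Rab21 that also binds Rab32 and Rab38, was at 11.8 and 10.4 against 20.4 and 17.5 FPKM (0.72 ± 0.11), and did not pass on the deposited scale (0.26). Dennd2d, Dennd1b and Ccz1 fell, with log2 fold changes of -0.54, -0.43 and -0.32. Ccz1 lost its call without any 1 of the 4 libraries (adjusted p from 0.0521 to 0.130), and Dennd1b without melanotrope replicate 1 (0.0685). Without a filter on low values Ankrd27, Dennd2d, Dennd1b, Ccz1, Rabac1, Rims3, Rims4, Ocrl and Myo5b, of the regulators named, were not called.

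Among GTPase-activating proteins, Tbc1d16 and Tbc1d1 changed most on the log2(FPKM + 1) scale. Tbc1d16, which acts on Rab4, was at 4.32 and 4.02 FPKM in corticotropes and 20.6 and 22.0 in melanotropes (2.11 ± 0.08, adjusted p = 4.59e-05). Tbc1d10a, which acts on Rab27, was at 6.10 and 6.64 against 12.5 and 12.5 FPKM (0.87 ± 0.08), and Sgsm3 had a log2 fold change of 0.62 that became 0.16, not called, on the deposited scale. Tbc1d1, known for Rabs of glucose transporter vesicles, fell from 16.3 and 22.1 to 4.28 and 5.14 FPKM (-1.81 ± 0.16, adjusted p = 4.69e-04). Tbc1d8 fell from 21.5 and 22.1 to 7.36 and 7.92 FPKM (-1.40 ± 0.08), and Usp6nl, which acts on Rab5, from 4.62 and 5.03 to 1.34 and 1.52 FPKM (-1.26 ± 0.10).

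In the lipid and membrane cycle, Rabggta, the alpha subunit of the enzyme that adds geranylgeranyl groups to Rabs, was at 9.71 and 8.65 FPKM in corticotropes and 16.3 and 15.4 in melanotropes (0.73 ± 0.09, adjusted p = 0.00174), with 0.28 on the deposited scale, where it was not called. Chm, which encodes a Rab escort protein, was at 6.74 and 7.04 against 5.01 and 5.18 FPKM (-0.37 ± 0.08, adjusted p = 0.0159), and lost its call without corticotrope replicate 2, melanotrope replicate 1 or melanotrope replicate 2 (0.0610, 0.0840 and 0.0628). Praf2 rose by 0.73 on the log2 scale. Rabac1, a prenylated Rab acceptor, was at 123 and 138 against 171 and 189 FPKM (0.46 ± 0.11, adjusted p = 0.0215), and at -0.03 on the deposited scale. It lost its call without corticotrope replicate 1 or melanotrope replicate 2 (0.151 and 0.0968).

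The granule effectors and docking or release factors also moved both ways, and the list holds genes, such as Rims3 and Rims4, whose products do not bind Rab3. Sytl1, a synaptotagmin-like effector of Rab27, was at 4.2 and 3.51 FPKM in corticotropes and 16.9 and 16.4 in melanotropes (1.86 ± 0.10, adjusted p = 9.08e-05). Its relative Sytl3 was at 7.70 and 5.70 against 1.28 and 1.12 FPKM (-1.80 ± 0.14, adjusted p = 3.37e-04), so the libraries of both genes separated by cell type in opposite directions. Rph3a, an effector of Rab3 and Rab27, was at 0.770 and 0.713 against 4.40 and 3.92 FPKM and passed the filter through melanotropes alone. Rims3, a short RIM protein that lacks the Rab3-binding domain of its longer relatives, fell from 29.2 and 34.6 to 11.7 and 15.6 FPKM (-1.17 ± 0.15), and Rims4, of the same kind, had a log2 fold change of 0.43 (0.06 on the deposited scale, not called) and was not called without melanotrope replicate 2 (adjusted p = 0.0898).

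For the other Rabs, Ocrl, a phosphoinositide phosphatase that binds several Rabs, was at 11.4 and 8.44 FPKM in corticotropes and 28.4 and 22.8 in melanotropes (1.29 ± 0.16). Myo5b, a motor for Rab11 membranes, was at 2.57 and 2.84 against 5.05 and 6.84 FPKM (0.89 ± 0.14), and Micall2 had a log2 fold change of 0.58. Osbpl1a, whose long form binds Rab7, fell from 14.4 and 15.8 to 5.42 and 7.01 FPKM (-1.17 ± 0.12). Mical1 (-1.08) and Rabep2, an effector of Rab4 and Rab5 (-0.99), fell as well, as did Rabep1 and the Rab11 effectors Rab11fip2 and Rab11fip3, which were named after their values were seen.

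**Figure D4:**
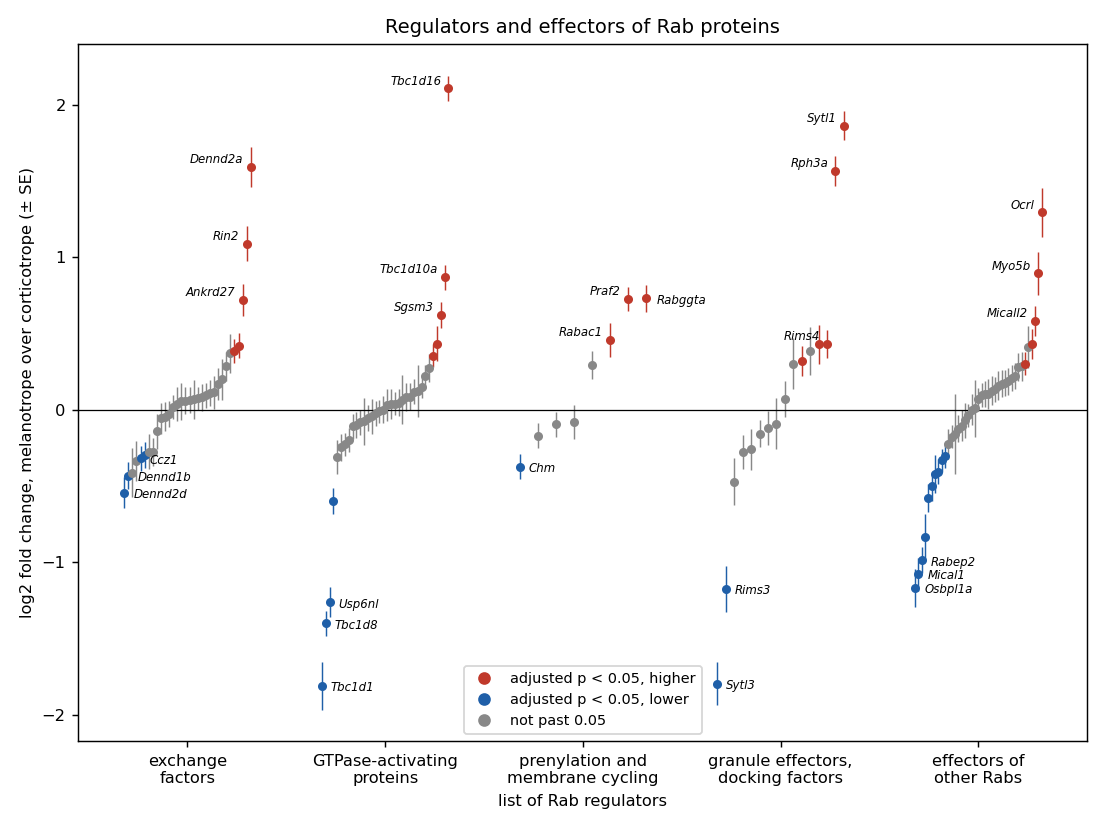
Log2 fold change, melanotrope over corticotrope, with its standard error (bars) for each regulator or effector tested, 1 column per list and genes ordered by size within it. The ends are Tbc1d16 at 2.11 and Tbc1d1 at -1.81, both GTPase-activating proteins, with Sytl1 (1.86) and Sytl3 (-1.80) far apart among the granule effectors and docking factors. Sizes are on the log2(FPKM + 1) scale.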

How the data were processed

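Ribosomal RNA was removed and paired reads of 50 bp were sequenced, per the labels. FPKM per RefSeq transcript were made by the authors with HOMER on mm10 by counting over exons, per the file headers. Deposited log2 fold changes and p-values came from HOMER's differential expression step, per the file headers. TopHat, HOMER and edgeR are named in the submitters' processing notes. Tool versions and any strand setting were not given in the sources used here. Deposited FPKM have 2 decimals.

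The Rab genes, the role, regulator and marker lists and the rule for named genes were chosen with earlier results of these data known. The rule named Rab3a to Rab3d, Rab26, Rab27a, Rab27b and Rab37 in any case, the 12 members per direction with the largest change among those called with separated libraries, and up to 3 genes per direction of each regulator list with the smallest adjusted p. Columns were divided by trimmed-mean factors (30% of M and 5% of A trimmed, no weights) of 1.22, 1.15, 0.882 and 0.807, in the order corticotrope 1 and 2, melanotrope 1 and 2. The longest transcript stood for its gene. A gene was tested if 2 or more libraries reached 1 FPKM, using limma 3.58.1 (R 4.3.3) (trend in the prior, two-sided, Benjamini-Hochberg over all genes) on log2(FPKM + 1), where changes of low genes are understated. Residual degrees of freedom were 2 and prior ones 4.01. Values after ± are standard errors of the log2 fold change.

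Depth was implied by low values: FPKM times length were whole multiples of 1 step (within 0.1 step) for 100% of the values used in each library. How many reads a pair counted for is unknown here. The model was tested on simulated data. Positions follow the deposited mm10 coordinates, counted from 1. Promoters came from RefSeq (GRCm38.p6), and exon overlaps from GENCODE. In the 15 alternatives run for named genes, the scaling, pseudocount, filter, transcript, prior variance, replicate term or set of libraries was changed.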

Additional observations from a re-analysis of the deposited data

How the results depend on the processing

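On the deposited scale 939 genes were higher and 8787 lower, 5 Rab genes were higher and 32 lower, and the Rab median was -0.41. There Rab3a (-0.16), Rab3d (-0.068), Rab22a (-0.0073), Rab25 (-0.053), Rab39b (-0.14) and the regulator Rabac1 (-0.030) changed sign, and the shift follows from the scaling factors by construction. Without a filter on low values 1460 genes and 10 Rab genes were higher, and 1671 and 5 lower. Equal sums without Pomc gave 18 higher and 7 lower Rab genes, median-ratio scaling 17 and 7. Leaving out 1 library gave 12 to 14 higher and 7 lower Rab genes, 1676 to 1999 higher and 1594 to 1988 lower genes in all, and Rab medians from 0.04 to 0.08. The lone library left in a cell type was then assumed to vary like the others. The replicate block gave 19 higher and 10 lower Rab genes and 3655 higher and 3355 lower genes in all, and changed no call of a named gene. Same-numbered libraries share only a number, with a correlation of their deviations of 0.526 across genes. Pseudocounts of 0.1 and 5 FPKM kept the count at 16 higher and 7 lower. FPKM at 2 decimals limit genes such as Rab38 and Rab37.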

Other observations

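The authors' deposited table gives a single log2 fold change of 0.0567 for 6 transcripts of Rab13, Rab29, Rab31, Rab39 and Rab42, as for 990 transcripts in all. For 5 transcripts of Rab32, Rab33a, Rab37 and Rab44 the authors' deposited table gives exactly 0.

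Where 1 Rab gene had several transcripts in the table (12 genes), their log2 ratios between cell types differed by at most 0.0409. Of the 58 Rab genes, 9 had at least 10% of their GENCODE exon bases covered by another gene, among them Rab43 (90.4%), Rab4b (85.2%), Rab2b (70.9%) and Rab24 (66.4%). Their levels may hold reads of the other gene, but overlap with the RefSeq transcripts counted was not computed.

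The 250 bases before the start were richer in G and C in the 48 Rab promoters than in all windows, with a median of 61.8 against 52.4%. The windows in all were not matched to the Rab genes for expression or kind of gene. The median was 61.0% for Rab genes that rose, 59.2% for those that fell and 62.4% for those not called. No window was matched for Rab26, Rab30 and Rab38, which fell, or for Rab18, Rab27b, Rab36 and Rab4a, which rose, so these are missing from the medians.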
